A study of Ascodesmis nigricans with 6 samples.

Results

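The comparison of total sexual with total vegetative mycelium of Ascodesmis nigricans rests on 4 RNA sequencing libraries, 2 of each mycelium, taken from a table of 6 libraries by the tissue named in the labels. All 9622 gene models of the table belong to it, and 8861 of them had enough counts to be tested. Ascodesmis nigricans is a filamentous ascomycete that forms apothecia, and every library comes from strain CBS 389.68 grown for 3 days at 25 °C on slides that carried 150 to 200 µl of rabbit food medium with 0.8% agar, fixed in ethanol. The remaining 2 libraries are of microdissected protoapothecia of the same strain, and they enter here in the low-count filter, the scaling and the estimate of the spread, and as another tissue beside the mycelia. The labels call the replicates independent biological ones, and carry the same culture text for both mycelia, so what made a culture sexual or vegetative is not given in the sources used here. Total mycelium is a bulk sample, in which fewer cells of a type and less RNA per cell cannot be told apart.

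Mycelium is the network of hyphae by which a filamentous fungus grows and feeds. In sexual development of ascomycetes, some hyphae differentiate into female structures, the ascogonia, around which sterile hyphae aggregate into a young fruiting body, while much of the surrounding mycelium stays vegetative. Total sexual mycelium can therefore hold both kinds of hyphae. The gene models carry protein identifiers that the table does not pair with names or products, so neither the labelled tissues nor any pathway could be checked against marker genes, and identifiers are printed for only 2 genes that rose and 2 that fell.

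The mycelia differed in a broad shift of the transcriptome. In sexual mycelium 2724 genes were higher, which is 30.7% of the tested genes, and 1309 were lower, which is 14.8% (edgeR quasi-likelihood test, Benjamini-Hochberg adjusted p under 0.05). Increases were most frequent among genes of low level in mycelium, and decreases among the most abundant ones. At the median, the higher genes had a fitted log2 fold change of 2.88 (quartiles 1.5 and 5.27) and the lower genes one of -1.54 (quartiles -2.10 and -1.12), against 0.42 over all tested genes. Each called gene had both sexual libraries on one side of both vegetative libraries, a pattern that 51.8% of tested genes showed upwards and 28.3% downwards, called or not. The balance between the 2724 and the 1309 genes depended on how the libraries were scaled. With the median log2 ratio set to 0, 1992 genes were higher and 2021 lower, and with library totals 4756 and 631.

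A stricter test asked which genes differed by more than 2-fold, and not merely from no change (edgeR glmTreat, adjusted p under 0.05). It gave 1616 higher genes, 18.2% of those tested, and 553 lower genes, 6.24%. Large changes were mostly increases. Fitted folds of 2 to 4 were found for 765 higher and 723 lower genes, folds of 4 to 10 for 559 and 332, folds of 10 to 100 for 758 and 41, and folds over 100 for 435 and 0. The lower genes thus lay mostly below 4-fold, with 16.3% of them under 2-fold and 55.2% between 2 and 4, while 27.8% of the higher genes were between 10 and 100-fold and 16.0% above that. With the median log2 ratio set to 0, the stricter test gave 1294 higher and 914 lower genes.

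**Figure D1:**
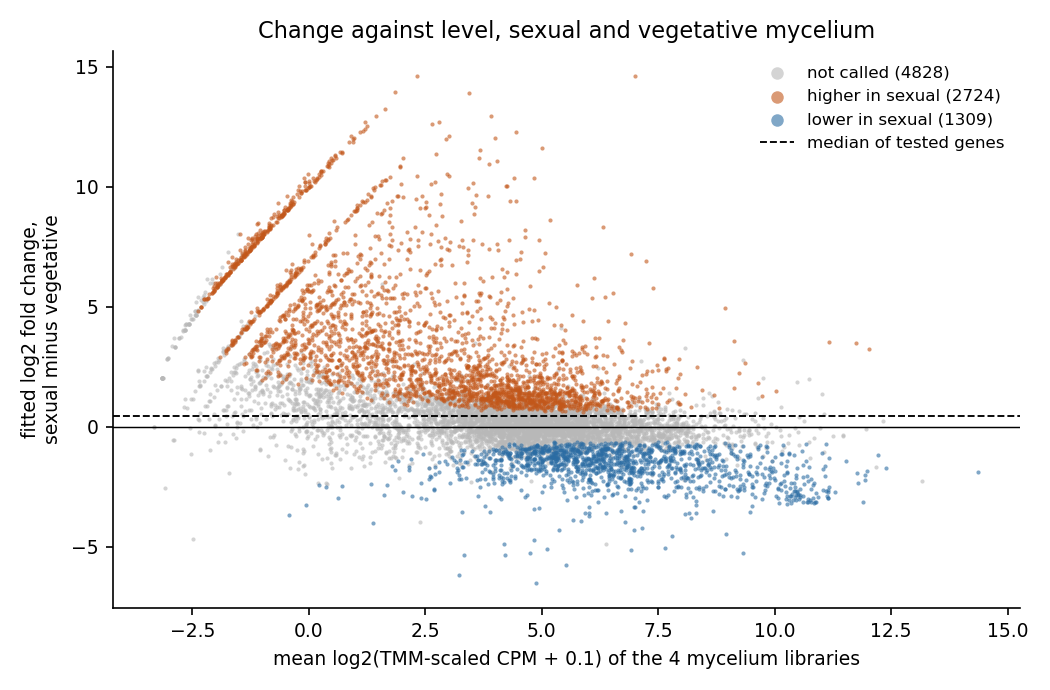
Fitted log2 fold change of each tested gene (sexual minus vegetative, vertical axis) against its mean level in the 4 mycelium libraries (horizontal axis, log2 of TMM-scaled CPM + 0.1). Orange points are the 2724 genes higher and blue points the 1309 genes lower in sexual mycelium; the cloud tilts from increases among rare genes to decreases among abundant ones.

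The spread of counts over genes shows the same difference from the side of single libraries. In vegetative mycelium, 154 genes in replicate 1 and 153 in replicate 2 held 50% of all counts. In sexual mycelium it took 311 and 410 genes. To reach 90% of the counts, 1829 and 1856 genes were needed in vegetative mycelium and 3255 and 3484 in sexual mycelium, so the groups did not overlap on either measure. The 10 genes with the most counts do not follow this order, since they held 17.2% and 9.80% of the counts in the sexual libraries and 10.2% and 11.9% in the vegetative ones. Sexual replicate 1 alone stood high there.

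**Figure D2:**
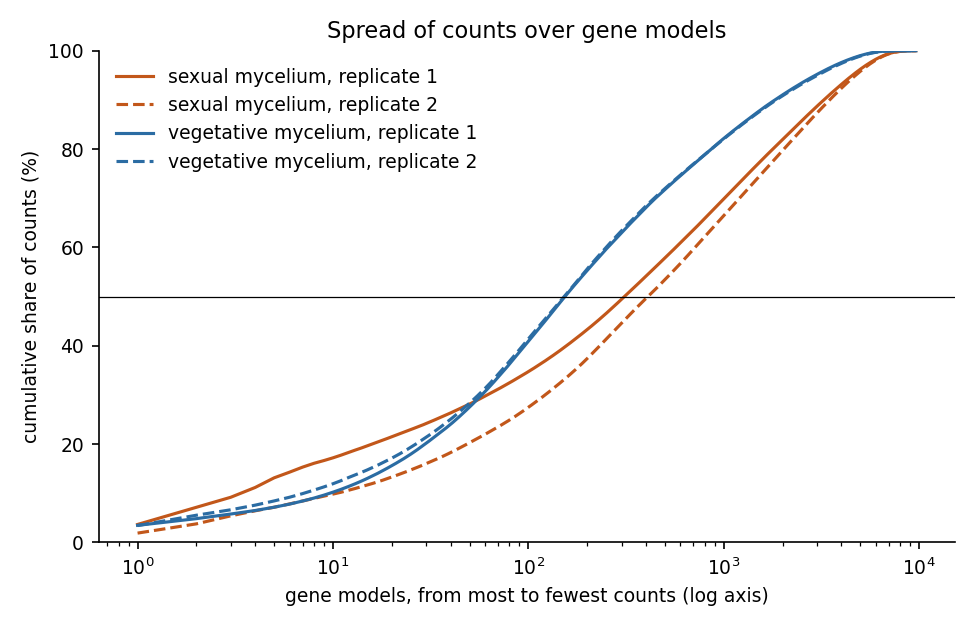
Cumulative share of counts (vertical axis, %) over gene models ordered from most to fewest counts (horizontal axis, log scale), 1 line per mycelium library. The vegetative lines lie almost on each other and cross 50% at 153 and 154 genes, and the sexual lines cross it at 311 and 410.

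Levels per length, as TPM (transcript abundance scaled to the same sum in each library) from the counts and the mRNA lengths, gave the same order. The median gene model was at 16.9 and 21.3 TPM in the sexual libraries and at 6.59 and 6.98 TPM in the vegetative ones. At 1 TPM or more there were 8685 and 8710 models in sexual mycelium against 6854 and 6985 in vegetative mycelium. At 1000 TPM or more the sexual libraries had 133 and 178 models, and the vegetative libraries 200 and 199. At 10 TPM or more the numbers were 5971 and 6466 against 4080 and 4180. Sexual mycelium thus had more models above the lower marks and fewer above the highest one.

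When the tested genes were divided into 5 classes of equal size by their mean level in the mycelium libraries, the direction of the calls turned over from bottom to top. In the class of lowest level, 57.1% of 1773 genes were higher and 0.395% were lower in sexual mycelium. In the second class the shares were 42.9% and 3.72%, and in the third 27.0% and 9.93%. The fourth class was even, with 18.6% higher and 18.7% lower. In the highest class 8.18% were higher and 41.1% were lower, and the median log2 fold change went from 3.23 in the lowest class through 0.03 in the fourth to -0.57 in the highest. These classes are made from the libraries compared, and a gene near 0 in one mycelium is pulled to a low mean, so the shares are a description with no test between classes. Genes could pass the low-count filter through any group in which they were high, protoapothecia included. Of the 2724 higher genes, 1119 had fewer than 10 counts in both vegetative libraries. Only 2 of the 1309 lower genes had fewer than 10 in both sexual libraries. Without the filter, 2698 genes were higher and 1277 lower.

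By the length of the mRNA, the share of higher genes differed little between classes. Across 5 classes of equal size, from models of 156 to 756 bases up to models of 2185 to 17559 bases, 29.2% to 31.7% of genes were higher in sexual mycelium, close to the 30.7% of all tested genes. The lower genes varied more, with 13.7% in the shortest class, 16.9%, 18.2% and 16.0% in the middle classes and 9.03% in the longest. Beyond 2-fold, the higher share was 20.1% in the shortest and 14.2% in the longest class, and the lower share 6.94% and 2.48%. The share of models with 0 counts in both vegetative libraries fell from 9.87% in the shortest to 1.02% in the longest class. Longer models collect more counts from the same number of transcripts, and the part of length in these shares was not tested further.

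**Figure D3:**
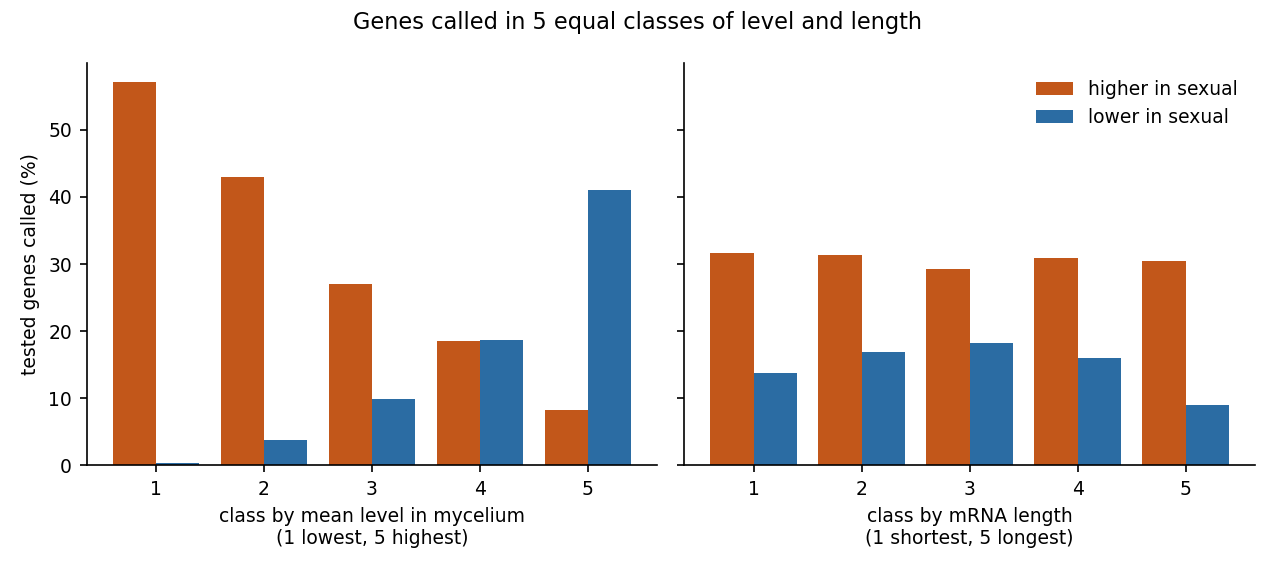
Share of tested genes called (vertical axis, %) in 5 equal classes by mean level in mycelium (left) and by mRNA length (right); orange bars are genes higher and blue bars genes lower in sexual mycelium. With level, the higher share runs from 57.1% down to 8.18% and the lower share from 0.395% up to 41.1%; with length, the higher share stays between 29.2% and 31.7%.

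Most of the genes with the highest mean TPM over the 4 mycelium libraries were lower in the sexual samples. Of the 100 tested genes with the highest mean TPM over the 4 mycelium libraries (2220 TPM or more), 75 were lower in sexual mycelium, 6 were higher and 19 did not pass. This set was formed from the libraries compared, and after the plot of change against level had been seen. A high level in either mycelium alone can bring a gene into it. The counts are therefore a description, to be read beside the 14.8% of all tested genes that were lower. The fitted log2 fold change of the 75 lower genes was -2.64 at the median with quartiles of -2.95 and -2.35. They took 28.6% and 27.8% of the counts in the vegetative libraries and 8.38% and 9.47% in the sexual ones. The 100 genes, ranked per length, had short mRNAs, with a median of 649 bases, and the 75 lower ones among them a median of 640 bases. The median of their mean TPM was 4360 in vegetative and 1170 in sexual mycelium, and 1180 in protoapothecia. With library totals in place of TMM factors, 69 of the 100 genes were lower and 14 higher, and the other settings gave 68 to 80 lower genes.

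Ranked within each mycelium instead, the 100 models of highest mean TPM shared 36 members. Of the 100 top models of vegetative mycelium, 91 were lower in sexual mycelium, 0 were higher and 9 did not pass, and their ranks in sexual mycelium reached down to 1058. Of the 100 top models of sexual mycelium, 34 were lower than in vegetative mycelium, 28 were higher and 38 did not pass, and their ranks in vegetative mycelium reached down to 8681. A top list is drawn from the high side of its own libraries, so these counts describe the lists and support nothing further.

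The single most abundant model of sexual mycelium per length was proteinId190317, with an mRNA of 676 bases. Its level was 50476 and 30311 TPM in the sexual libraries, 1.08 and 0.765 TPM in the vegetative libraries and 38.0 and 86.6 TPM in protoapothecia. It ranked first in sexual mycelium and 6982nd in vegetative mycelium, where it had 9 and 7 counts. Both sexual libraries were far above all others, although they differed from each other. Its fitted log2 fold change was 14.61 ± 0.82 (SE) with an edgeR adjusted p of 0.000364, and between 14.01 and 14.99 when any 1 library was left out. The ratio in the authors' deposited table of DESeq results is 17281.

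The gene with the smallest p among those that rose, proteinId341783, has an mRNA of 2875 bases and a modest level. It had 2721 and 3081 counts in sexual mycelium, 9 and 9 counts in vegetative mycelium and 917 and 1276 counts in protoapothecia. Replicates lay close together in both mycelia, at 86.6 ± 9.50 TPM against 0.242 ± 0.0155 TPM (SD, n = 2). It was 200-fold higher by scaled counts (95% exact counting interval 126 to 337, without the spread between replicates). Its fitted log2 fold change was 7.63 ± 0.33 (SE; edgeR adjusted p = 0.000324). No single library moved that value outside 7.58 to 7.68.

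Of the genes that fell, proteinId335151, with an mRNA of 1520 bases, had the smallest p. It had 40 and 54 counts in sexual mycelium, 1255 and 1126 in vegetative mycelium and 79 and 53 in protoapothecia. Vegetative mycelium alone was high, at 60.7 ± 8.51 TPM against 2.66 ± 0.617 TPM in sexual mycelium (SD, n = 2). Sexual mycelium was 40.9-fold lower (counting interval 33.3 to 50.8), with a fitted log2 fold change of -5.36 ± 0.34 (SE; edgeR adjusted p = 0.000366).

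The most abundant of the lower genes per length was proteinId359588, with an mRNA of 1592 bases, the second most abundant model of vegetative mycelium. Its share of the counts was 3.47% and 3.43% in vegetative and 1.16% and 1.88% in sexual mycelium. Its level was 20587 and 20414 TPM in vegetative mycelium, 7114 and 12765 TPM in sexual mycelium and 3941 and 3811 TPM in protoapothecia, so the tissues did not overlap. Its fitted log2 fold change was -1.91 ± 0.26 (SE; edgeR adjusted p = 0.00176), and -1.18 with library totals. TPM and library totals carry no TMM factor, so their ratios differ from the fitted fold changes.

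The rest of the genes with extreme changes are described together. The 10 genes with the highest fitted fold changes, all with a mean of 20 or more counts in sexual mycelium, had log2 values of 12.6 to 14.6. Their vegetative libraries held 0 to 9 counts and their sexual libraries at least 415. Of these 10 genes, 5 had no vegetative count. For them only a bound of 226-fold to 844-fold can be given, the mean sexual level over a floor of 3 counts per vegetative library. This bound leaves out the spread of the sexual replicates. Sexual replicates of the 10 genes were up to 4.84-fold apart, and all 10 were also counted in protoapothecia, at 6.66 to 1780 CPM. The 10 genes with the lowest fold changes had log2 values of -6.50 to -5.05, folds of 33.6 to 90.2 and at least 16 counts in each sexual library. One of them, with an mRNA of 960 bases, had 265 counts in vegetative replicate 1 and 6761 in replicate 2. Its log2 fold change was -5.12 with all libraries and -1.48 without vegetative replicate 2, where it no longer passed (edgeR adjusted p = 0.0668). It also lost the call without either sexual replicate and under several other settings, at adjusted p of 0.0518 to 0.362.

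The 5 most abundant genes that rose differed in how well their replicates matched. The other 4 after proteinId190317 had mean levels of 5434 to 34435 TPM in sexual mycelium and 99.0 to 1713 TPM in vegetative mycelium. The model with an mRNA of 384 bases was at 49841 and 19030 TPM in sexual and 590 and 2837 TPM in vegetative mycelium. Its log2 fold change was 3.54 (edgeR adjusted p = 0.0184), and it did not pass without sexual replicate 1 (adjusted p = 0.0758) or without vegetative replicate 1 (0.0627). The model with an mRNA of 920 bases was at 38889 TPM in sexual replicate 1 and 4571 TPM in replicate 2, against 936 and 1388 TPM in vegetative mycelium. It passed by edgeR (adjusted p = 0.0266), but not without sexual replicate 1, where its log2 fold change went from 3.48 to 0.99 (adjusted p = 0.0895), nor without either vegetative or either protoapothecia replicate (adjusted p of 0.051 to 0.138). The model of 952 bases was even in both sexual libraries, at 20471 and 18493 TPM, against 796 and 1513 TPM in vegetative mycelium and 9608 and 12013 TPM in protoapothecia. Its log2 fold change was 3.25 ± 0.39 (SE; edgeR adjusted p = 0.00104).

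The replicates of sexual mycelium differed more among abundant genes than those of vegetative mycelium. Of the 100 models with the highest mean TPM in a tissue, 27 were over 2-fold apart between the sexual replicates and 12 were over 4-fold apart, against 1 and 0 in vegetative mycelium and 9 and 4 in protoapothecia. Over all tested genes the median difference between replicates was 0.361 on the log2 scale in sexual mycelium, 0.237 in vegetative mycelium and 0.405 in protoapothecia. The median difference between the mycelia was 0.973. The p-values treat these unequal spreads as 1 shared spread per gene.

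The 4 most abundant genes per length that did not pass were not shown to be alike in the mycelia. The most abundant model of vegetative mycelium, proteinId343010, was at 9690 and 5531 TPM in sexual, 16491 and 25581 TPM in vegetative mycelium and 1047 and 141 TPM in protoapothecia. The mycelia did not overlap, but its log2 fold change of -2.27 had a 95% interval from -4.33 to -0.21 (edgeR adjusted p = 0.0705). For proteinId347804, at 9922 and 4093 TPM in sexual against 11032 and 15126 TPM in vegetative mycelium, the log2 fold change was -1.69 (adjusted p = 0.0519), and -2.66 without sexual replicate 1 (edgeR adjusted p = 0.0127). Both genes passed the threshold under some settings and not under others. The authors' deposited DESeq ratios are 0.19 for proteinId343010 and 0.27 for proteinId347804, with a deposited DESeq adjusted p under 0.05 for both.

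The sexual replicates of proteinId341197 went separate ways. It stood at 21505 TPM in replicate 1 and 1588 TPM in replicate 2, on both sides of the vegetative libraries at 4242 and 7690 TPM. Its log2 fold change was 0.22 (95% interval -2.28 to 2.72; edgeR adjusted p = 0.885) and turned to -2.90 without sexual replicate 1 (adjusted p = 0.0127). The fourth, proteinId343265, had close replicates, at 9542 and 9122 TPM in sexual mycelium, 4283 and 2967 TPM in vegetative mycelium and 4974 and 5739 TPM in protoapothecia. After TMM scaling its log2 fold change was 0.54 (95% interval -0.11 to 1.18; adjusted p = 0.147), and it passed with library totals, at 1.25 (edgeR adjusted p = 0.00845).

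**Figure D4:**
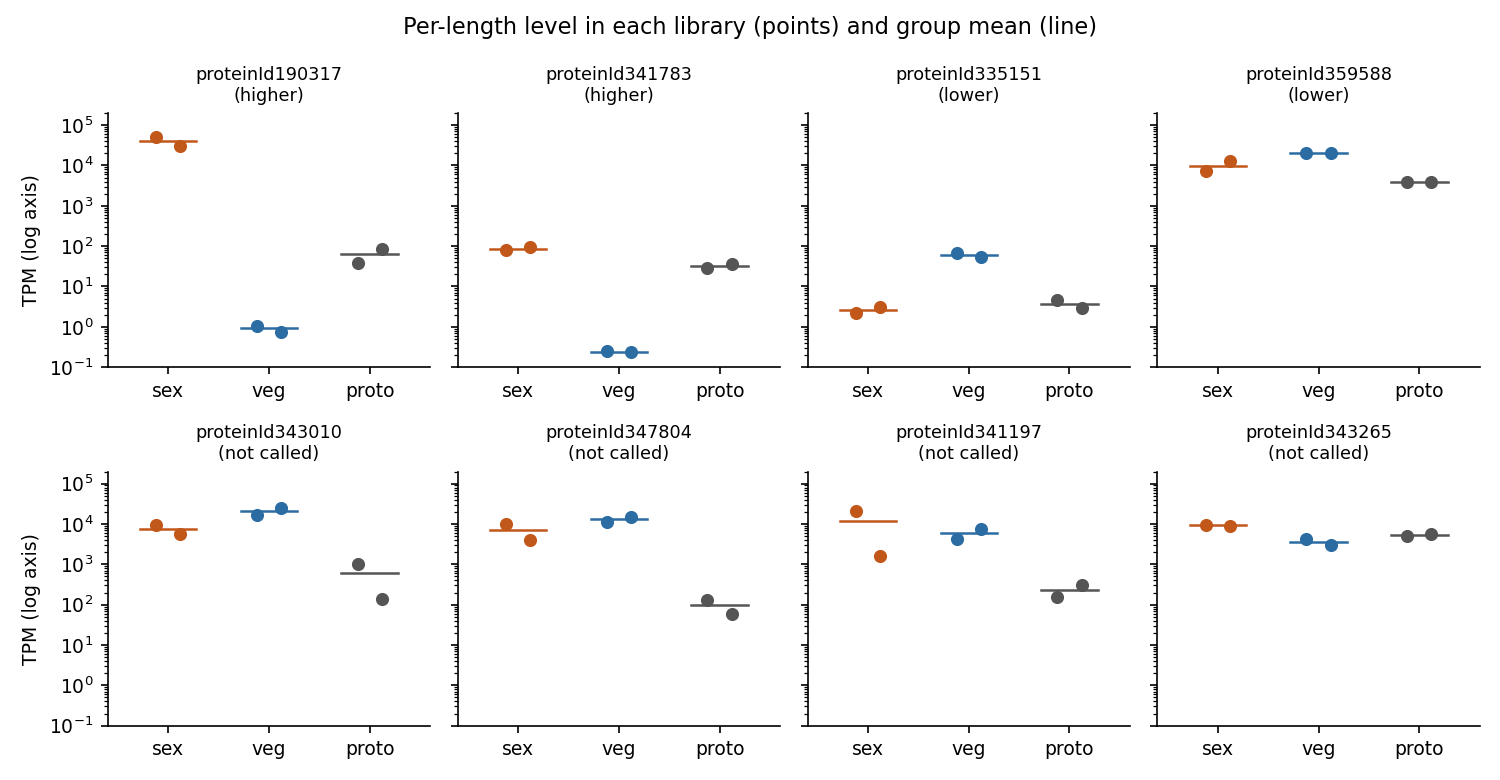
Level per length (TPM, log axis) of the 8 genes given by identifier in each library, with sexual mycelium in orange, vegetative mycelium in blue and protoapothecia in grey; points are libraries and lines are means of 2. The mycelia are apart in the upper row, and in the lower row only proteinId341197 has sexual libraries, at 21505 and 1588 TPM, on both sides of the vegetative ones.

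The 4828 genes that did not pass were sorted by the 95% interval of their log2 fold change. For 1404 of them the whole interval lay within 2-fold in either direction, so a larger difference lay outside it. For 1833 the interval reached past 2-fold upwards only, for 1080 downwards only, and for 509 in both directions, and 2 had no interval. There were 772 with an unadjusted p under 0.05, and 830 with a fitted fold over 2. Of the 4828 that did not pass, 3059 had mycelia that did not overlap, as did 7092 of all 8861 tested genes (80%).

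Genes without any vegetative count form the far end of the increases. Both vegetative libraries were at 0 for 787 models and both sexual libraries for 119, of which 98 were the same models. Of the 689 models counted in sexual mycelium alone of the 2 mycelia, 550 had a count in each sexual library, 306 had a mean of 10 or more, 77 of 100 or more and 5 of 1000 or more. In the opposite direction 21 models were counted in vegetative mycelium alone, 5 of them in each library, with a mean of at most 2.5 counts. The TMM factors were 1.32 and 1.41 for the sexual and 0.840 and 0.819 for the vegetative libraries. A rare transcript of equal scaled level would thus give more counts in sexual mycelium. How far this bears on the 689 against 21 models was not tested. The 689 models were short, with a median mRNA of 639 bases against 1230 bases over all models, and the median of their mean counts per sexual library was 7. For 124 of them no count was found in protoapothecia either.

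The floor of 3 counts per library, 0.285 and 0.306 CPM in the vegetative libraries, decides what can be said of them. Of the 689 models, 374 were tested and 295 were called higher, the only direction open to a model without a vegetative count. Over all tested genes 30.7% were called higher. The bound of the fold, the mean sexual level over the floor, reached 10 for 128 models and 100 for 14, with a maximum of 844. It takes no account of the spread between the sexual replicates. Taking all 1193 higher genes with a fitted fold of 10 or more, 707 were at least 10-fold higher when the bound, or the lower end of the 95% exact counting interval where vegetative counts existed, was used in place of the fitted value. At 100-fold the number was 135 of 435. With the models at 0 set to their bound, the median log2 fold change of the higher genes was 2.59 instead of 2.88, and that of the lower genes did not move from -1.54, since none of them was at 0 in sexual mycelium. Intervals and floors cover the counting of reads only, and leave out the spread between replicates. Amplification makes several reads of 1 molecule, so they also understate the error of counting molecules.

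The called genes were also looked up in protoapothecia, as values beside the mycelia. The fit to the 4 mycelium libraries alone, in which protoapothecia set neither scaling nor spread, called 2404 genes higher and 1857 lower. The 2724 higher genes had a median level of 18.3 CPM in sexual, 1.73 CPM in vegetative mycelium and 23.8 CPM in protoapothecia, with quartiles of 5.24 and 48.4, of 0.153 and 11.6, and of 5.89 and 85.3 CPM. The 1309 lower genes were at 49.4, 149 and 41.0 CPM. The genes that did not pass were at 23.9 and 22.7 CPM in the mycelia and 12.8 CPM in protoapothecia. By share of counts, the higher genes took 2.53% and 2.98% in vegetative mycelium, 28.9% and 28.7% in sexual mycelium and 39.9% and 40.5% in protoapothecia. Whether the sexual libraries held RNA of young fruiting bodies was not tested.

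How many genes count as higher depended on the scaling. The TMM factors were 1.32 and 1.41 for the sexual libraries and 0.840 and 0.819 for the vegetative ones. With library totals alone the median log2 ratio over all tested genes was 1.15 and higher genes were 88.3% of the calls, and with the median set to 0 they were 49.6%, against a median of 0.42 and 67.5% with TMM factors. Genes called in the same direction with TMM, RLE, upper-quartile and library-total scaling and with the median set to 0 numbered 1992 higher, 22.5% of tested genes, and 631 lower, 7.12%. The smallest fitted log2 fold changes among them, with TMM factors, were 1.06 and -1.34. The 1992 were all the genes called higher with the median set to 0, and the 631 all those called lower with library totals. These scalings alone thus set both numbers, and the others took no further gene away.

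A smaller core passed under every setting that had been listed. Counting the reported fit and 18 other settings of scaling, filter, tool, replicate term or left-out library, 1269 higher genes (46.6% of the 2724) and 584 lower genes (44.6% of the 1309) were called in the same direction each time. The median log2 fold change was 4.79 for the higher and -2.09 for the lower genes of this core. The 1269 genes were at a median of 0.544 CPM in vegetative, 18.7 CPM in sexual mycelium and 36.3 CPM in protoapothecia, and 186 of them had no vegetative count. The 584 genes were at 294 CPM in vegetative, 68.2 CPM in sexual mycelium and 69.3 CPM in protoapothecia. Their share of the counts was 53.6% and 50.8% in the vegetative and 15.7% and 17.2% in the sexual libraries. The number of genes that any of the 19 other settings run called opposite to the reported fit was 0. All settings used the same libraries, and the called genes had mycelia that did not overlap, so this gives no independent support.

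**Figure D5:**
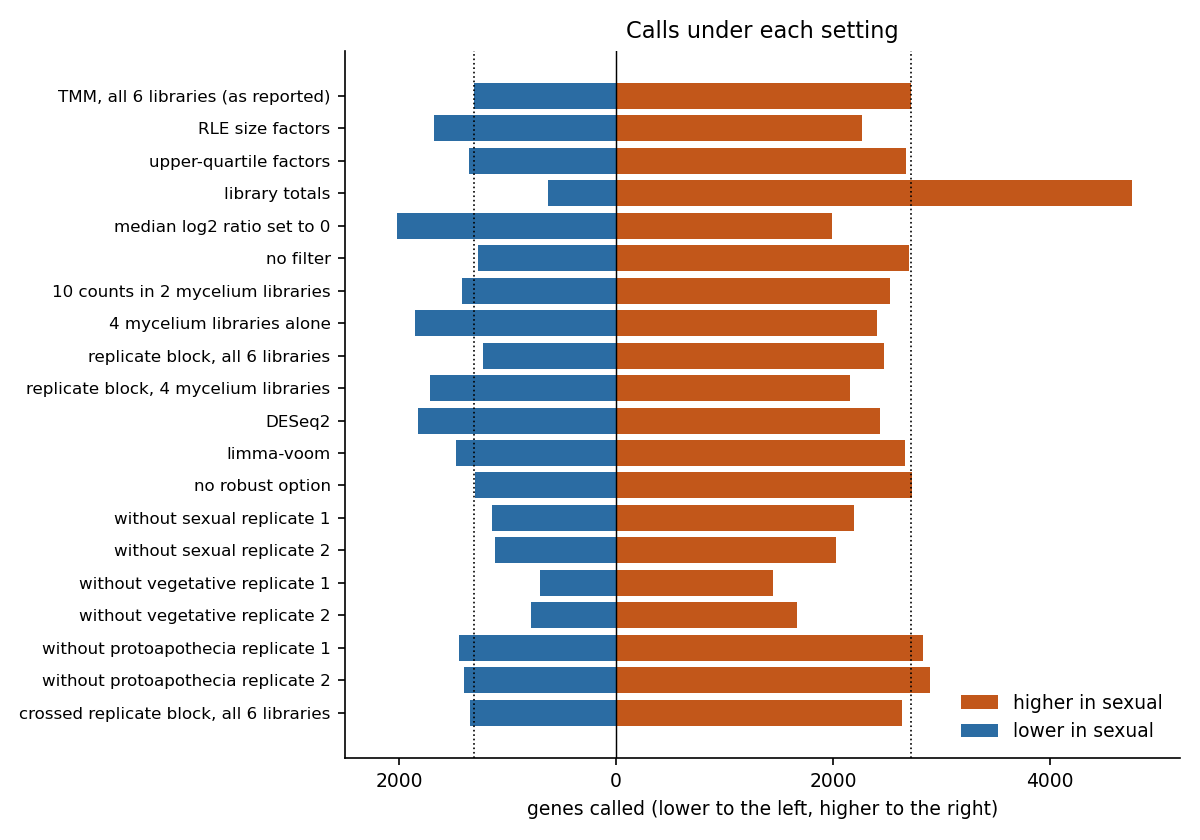
Genes called lower (blue, to the left) and higher (orange, to the right) in sexual mycelium under the reported fit and each alternative setting; dotted lines mark the reported 1309 and 2724. Library totals give 631 lower and 4756 higher genes, and leaving out vegetative replicate 1 gives 705 and 1451.

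The authors' deposited table of DESeq results was set beside these calls. All 1309 lower genes have a deposited adjusted p under 0.05, as do 2358 of the 2724 higher genes and 533 of the genes that did not pass here. The authors' deposited table gives ratios, sexual over vegetative, with medians of 5.88 for the higher genes, 0.29 for the lower genes and 1.13 over all tested genes. Fewer genes passed when a library of either mycelium was left out, and fewest without a vegetative one. Such a fit holds 1 library of that mycelium, so lost replication and what the library held cannot be told apart.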

How the data were processed

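Extracted RNA underwent linear amplification before Illumina sequencing, per the labels' protocols. The deposited table holds raw counts for each gene model and library and the mRNA length, per the file headers; the aligner, counting tool, build and annotation, and whether counting used strand, were not given in the sources used here, so overlapping, antisense or near-identical genes may share reads. It also holds the authors' deposited ratio and adjusted p-value of a DESeq analysis, which is named in the submitters' processing notes as well; these p-values are rounded. LOX and "classic" results in the table were not used. No per-sample column was left out.

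Genes were filtered with edgeR's filterByExpr, which left out 761 models, and scaled with TMM factors. All 6 libraries were fitted by group without a replicate term, and sexual was compared with vegetative mycelium by the quasi-likelihood test and glmTreat (edgeR 4.0.16, limma 3.58.1, R 4.3.3; robust, 3 residual degrees of freedom), adjusted over all tested genes, two-sided. SEs were derived from the fold change and the F statistic. CPM are TMM-scaled. DESeq2 1.42.0 and limma-voom were alternatives. The procedure was tested on simulated counts in which few genes changed, about as many upwards as downwards. Those counts do not test the scaling under a lopsided shift. Figures used matplotlib 3.10.9. Library totals ran from 11589777 to 12835772 counts. Replicates differed by more than counting noise (chi-square over degrees of freedom of 42 to 248), so no library was a duplicate.

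Genes were named by rule: the 10 highest and 10 lowest fold changes with a mean of 20 or more counts and no overlap, the 5 most abundant per length in each direction, the 4 most abundant not called, and the smallest p in each direction. Identifiers are printed for few of them. Gene lists by function could not be matched to identifiers. The members, rule and lists were chosen with earlier results of these data known.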

Additional observations from a re-analysis of the deposited data

How the results depend on the processing

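The number of changed genes (4033) and of genes changed beyond 2-fold (2169) stayed within 1.5 times under the 19 alternatives except without either vegetative replicate; leaving out 1 library gave 2156 to 4300 and 1250 to 2141 genes, lowest without vegetative replicate 1 and next lowest without vegetative replicate 2. Those fits take the spread of the single library left from the other groups, and the cause was not tested. The share of higher genes (67.5%) was 57.5% with RLE size factors, 88.3% with library totals, 49.6% with the median log2 ratio set to 0, 64.1% with a filter of 10 counts in 2 mycelium libraries, 56.4% with the 4 mycelium libraries alone, 57.0% with DESeq2, 64.4% with limma-voom and 64.4% to 67.9% without 1 library. The median log2 ratio (0.42) was 0.18 with RLE size factors, 0.40 with upper-quartile factors, 1.15 with library totals, 0 by construction when set to it, 0.51 without a filter, 0.31 with the stricter filter, 0.19 with the 4 mycelium libraries alone, 0.18 with DESeq2 and 0.37 to 0.49 without 1 library. The labels do not say that a replicate number marks a shared culture, and deviations of same-numbered sexual and vegetative libraries had a correlation of -0.158 across genes. With a replicate block 3696 genes were called in all 6 libraries and 3880 in the mycelium libraries alone, of which 55.7% were higher (median log2 ratio 0.17). A block with crossed numbers, chosen after seeing the data, gave 3980 genes. Of 646 values of 34 named genes under the alternatives, 594 stayed on their side of the threshold with no change of sign, 27 lost the call and 19 gained it. The other 6 changed sign and all belong to proteinId341197, which was not called at 0.22. It was at -0.21 with the median set to 0, -1.04 with the block in the mycelium libraries, -0.83 with limma-voom, -0.22 with the crossed block, and from -2.90 without sexual replicate 1, the only one of these that passed, to 1.10 without sexual replicate 2. Depth limits the folds of genes at 0 counts in vegetative mycelium to bounds taken at a floor of 3 counts per library.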
